A study of Mus musculus with 4 samples.

Results

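The genes described here encode the path from glucose uptake through glycolysis and pyruvate oxidation to the citric acid cycle. They are a fixed set of 40 genes named by symbol, and every probe that the platform annotation gives to them was used. A named probe was available for 37 of the 40, with 51 probes in all, out of 16593 genes and 23978 probes with a gene name. Gpi1 (glucose-6-phosphate isomerase), Eno1 (the widely expressed enolase) and Ldhb (the lactate dehydrogenase chain of heart muscle) were not analysed here.

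As background, glycolysis splits glucose into pyruvate in the cytosol, and several of its steps have isozymes of their own in striated muscle. Pyruvate is either reduced to lactate or enters mitochondria, where the pyruvate dehydrogenase complex turns it into acetyl-CoA for the citric acid cycle. The adult heart makes most of its ATP in mitochondria, mainly from fatty acids, and pyruvate dehydrogenase kinases restrain the use of glucose by phosphorylating that complex.

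RNA came from whole hearts of C57Bl6 mice aged 8 to 9 weeks, all with 1 kidney removed and all carrying floxed alleles of the mineralocorticoid receptor (MR). The 4 groups were CM-MRKO mice (MR flox/flox with MLC2v Cre) given DOC/salt, CM-MRKO mice given vehicle, WT mice (MR flox/flox without Cre) given DOC/salt and WT mice given vehicle, each for 8 days. MLC2v is a ventricular myosin light chain, so Cre driven from it acts in ventricular cardiomyocytes, and other heart cells keep the receptor. DOC is deoxycorticosterone, a steroid that activates MR. Equal amounts of RNA from 8 hearts were pooled for each group and each pool was read on 1 bead array, which leaves every difference without a replicate check and without a p-value. In whole-heart RNA, fewer cells of a type and less RNA per cell cannot be told apart. A probe was called detected on an array where it was brighter than all but 1% of probes for odorant, vomeronasal and taste receptors, and 1.5-fold on the normalized scale was the threshold for calling a gene higher or lower.

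Brightness was not equal. Median deposited intensities were 102.7, 98.6, 92.6 and 91.5 on the CM-MRKO DOC/salt, CM-MRKO vehicle, WT DOC/salt and WT vehicle arrays. The medians lay below the detection limits, and the WT vehicle array differed more in its brighter probes. Upper quartiles of intensity were 161.4, 152.4, 147.6 and 120.2 in the same order. The shares of probes detected were 34.2%, 32.6%, 32.7% and 29.4%, and the genes detected 6534, 6219, 6236 and 5696. The WT vehicle array stood apart: of 6830 detected genes, 304 (4.45%) were lower there by 1.5-fold or more than on each of the other 3 arrays. Cardiomyocyte markers were detected on all arrays for 6 of 7 measured genes (Ryr2 was not), whereas 0 of 5 skeletal muscle markers and 1 of 6 adipocyte markers were. No probe named Nr3c2, the MR gene, was analysed here, which leaves the genotype unchecked at the targeted gene.

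Most of the pathway was well above background in these hearts. Of the 37 genes, 32 (86.5%) were detected on all 4 arrays, against 33.0% of all genes with a named probe, 2 on some arrays and 3 on none. Of those 32, 27 lay above the median level of the genes detected on all arrays and 16 in the top 10%. Intensity depends on the probe as well as on the transcript, so the values below compare arrays for 1 probe and do not rank isozymes. Where a gene had several probes, the brightest represents it.

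Glucose enters muscle cells through the transporters GLUT1 and GLUT4. Slc2a4, which encodes the insulin-responsive GLUT4, had an intensity of 798.8 in CM-MRKO DOC/salt, 682.3 in CM-MRKO vehicle, 805.9 in WT DOC/salt and 586.7 in WT vehicle. Slc2a1, encoding GLUT1, read 174.5, 169.6, 175.6 and 117.8 in the same order. As deposited, both were lowest on the WT vehicle array, but after normalization Slc2a4 was highest there (9.63 on the log2 scale, against 9.15 to 9.45 on the others). Among hexokinases, which trap glucose as its phosphate, Hk2 of insulin-sensitive tissues read 3287, 3387, 3516 and 1984. Hk1, the more general form, read 123.6, 100.4, 112.1 and 93.3 and was detected on the CM-MRKO DOC/salt array alone.

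Phosphofructokinase, the main regulated step of glycolysis, was detected on all arrays through each of its 3 genes. The muscle form Pfkm read 10249, 9058, 8674 and 5776 in CM-MRKO DOC/salt, CM-MRKO vehicle, WT DOC/salt and WT vehicle. The liver form Pfkl read 1878, 1560.0, 1845 and 1306, and the platelet form Pfkp 358.2, 376.1, 375.5 and 289.5. For Pfkm, 3 of 3 probes were detected on every array, but for Pfkl and Pfkp the further probes (1 and 2) were detected on at most 1 array. Thus all 3 subunit genes had signal in whole heart, of which Pfkl and Pfkp rested on 1 probe each.

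The steps from aldolase to pyruvate kinase were read mostly by bright probes. Eno3, the muscle enolase, read 16743 in CM-MRKO DOC/salt, 15381 in CM-MRKO vehicle, 14626 in WT DOC/salt and 11878 in WT vehicle. Pgam2, the muscle phosphoglycerate mutase, read 7219, 7607, 7228 and 4987, and its general counterpart Pgam1 read 223.0, 210.4, 211.5 and 198.2. The muscle-type genes therefore had signal on every array, which held for 0 of 5 skeletal muscle markers. Of these markers Myh1, Myh4 and Tnnt3 were detected on no array, and the others on some. Aldoa (aldolase) ranged from 3156 to 6257 over the arrays, Tpi1 (triose phosphate isomerase) from 7402 to 10239 and Pkm (pyruvate kinase of muscle and most other tissues) from 3273 to 5161. Gapdh, often taken as a constant control, read 20806, 18884, 18630.2 and 17366. Ldha, the lactate dehydrogenase chain typical of skeletal muscle, read 4984, 4827, 5023 and 4566. The only Pgk1 (phosphoglycerate kinase) probe read 98.4 to 103.2 and was not well above background on any array, although the enzyme belongs to the same chain.

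In mitochondria, the pyruvate dehydrogenase genes Pdha1 (catalytic alpha chain), Pdhb (beta chain) and Dlat (acetyl transferase) were detected on all arrays, with Pdha1 between 3691 and 5300.2. Dld, the dehydrogenase that this complex shares with others, was not well above background (85.9 to 98.7). The citric acid cycle genes Idh3a, Idh3b and Idh3g (NAD-linked isocitrate dehydrogenase), Ogdh and Dlst (2-oxoglutarate dehydrogenase), Suclg1 (succinyl-CoA ligase), Fh1 (fumarase) and Mdh2 (mitochondrial malate dehydrogenase) were detected on every array. Their lowest value was 363.9, for Idh3b in WT vehicle, and their highest 9057, for Idh3g in WT DOC/salt. Sucla2, the ligase chain that forms ATP, was not well above background (81.4 to 93.6).

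**Figure D1:**
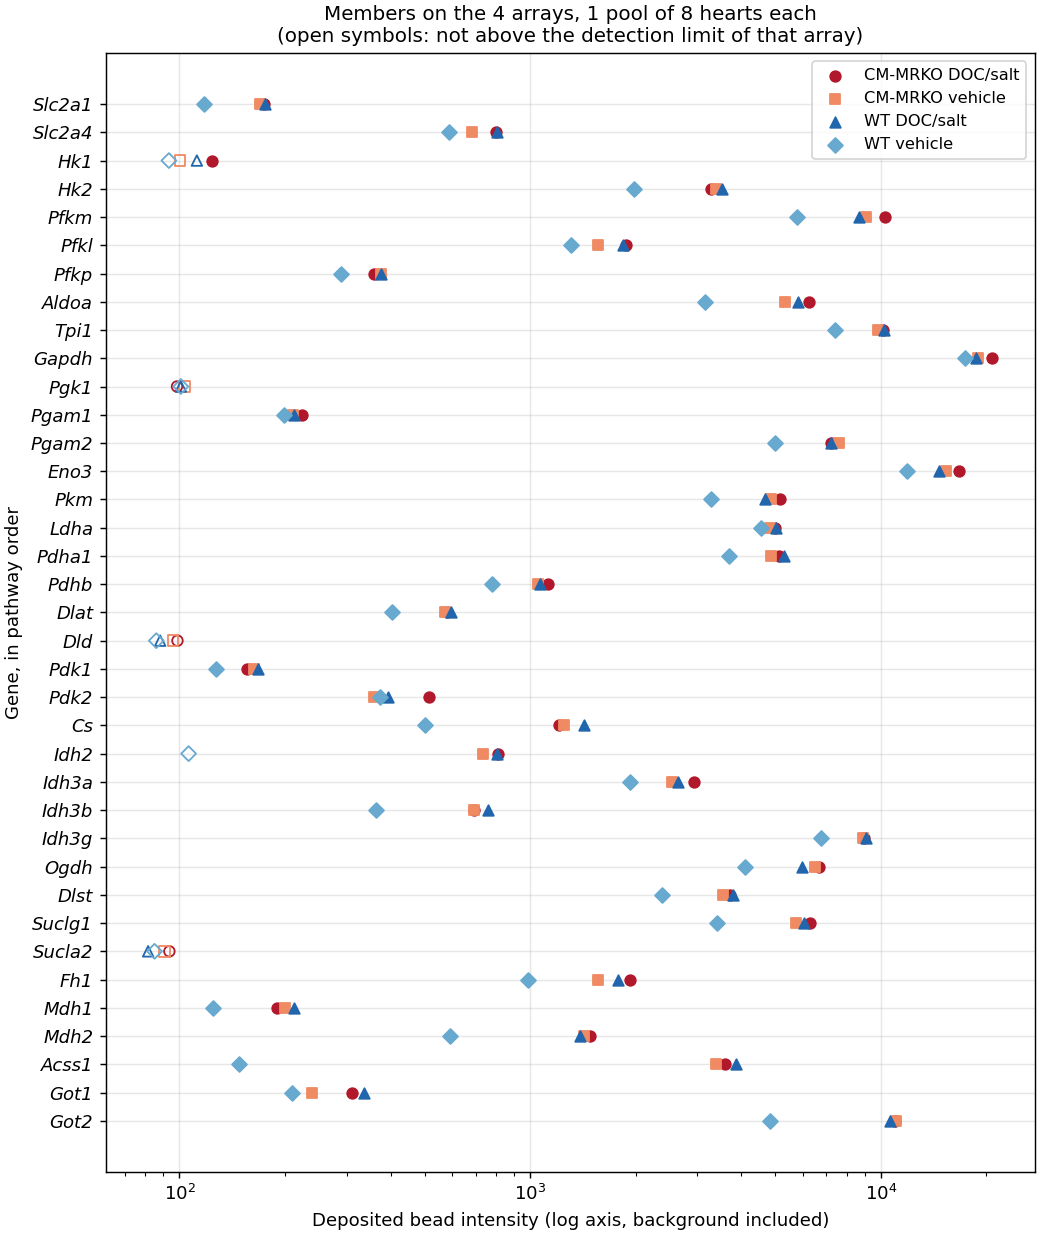
Deposited bead intensity (log axis) of the 37 members with a named probe, in pathway order, on the 4 arrays; each symbol is 1 pool of 8 hearts, and open symbols are not above that array's detection limit. For most genes 3 symbols lie close together and the WT vehicle diamond lies to their left, farthest for Acss1 (3379 to 3857 on the other arrays, 148.3 in WT vehicle) and Idh2 (734.8 to 808.9, and 106.2).

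In hearts without the cardiomyocyte receptor, DOC/salt left the brightest probe of each tested member within 1.5-fold. Of 34 members detected on at least 1 of the CM-MRKO arrays, 0 were higher (0.63% of all 6668 genes were) and 0 lower (0.42% of all genes). Shares this small leave room for few calls among 34 genes. Their median log2 difference was -0.01, against 0.01 over all genes, and 25 of 34 differed by no more than 0.17, a technical spread measured between probes that read 1 gene. The genes outside that spread included Pdk2, a pyruvate dehydrogenase kinase, at 516.3 after DOC/salt and 359.6 with vehicle, a log2 difference of 0.51 and 1.43-fold. Got1, the cytosolic aspartate aminotransferase of the malate-aspartate shuttle, read 309.7 and 239.1 (log2 difference 0.37). Fh1 read 1931 and 1561 (0.25), and Pdk1, another pyruvate dehydrogenase kinase, read 155.7 and 163.2 (-0.24). All of these stayed under the threshold. A dimmer Pdhb probe (ILMN_3116570) was past it, at 122.3 after DOC/salt and 147.0 with vehicle (-0.63). Its DOC/salt value lay just above the detection limit of 121.7, and the brighter Pdhb probe stood at -0.01. Hk1 passed the detection limit with DOC/salt (123.6) but not with vehicle (100.4), and no fold is given for it. By compartment, the median was -0.01 for the 17 genes of the cytosol and plasma membrane and also -0.01 for the 17 mitochondrial genes.

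Under DOC/salt, CM-MRKO hearts also showed 0 of 34 members higher and 0 lower than WT hearts, where 0.882% of 6689 genes were higher and 0.942% lower. The members nevertheless leaned to one side: 27 of 34 (79.4%) were below 0 against 46.4% of all genes, and their median log2 difference was -0.13 against 0.02. With unnormalized intensities the members' median was 0.00 against 0.13 over all genes. The gap between both medians lay between -0.16 and -0.12 in each of the 10 alternative settings. Single differences were small, and 23 of 34 were within the technical spread of 0.19.

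By the brightest probe and after normalization, the lowest members in this genotype comparison were Mdh1, Pdk1 and Cs. Mdh1, the cytosolic malate dehydrogenase, read 190.3 in CM-MRKO and 211.7 in WT (log2 difference -0.40). Pdk1 read 155.7 in CM-MRKO and 167.4 in WT (-0.37). Cs, citrate synthase, which starts the cycle, read 1210 in CM-MRKO and 1420.1 in WT (-0.36). This order depended on the background correction. Without it Cs stood at -0.34, Mdh1 at -0.27 and Pdk1 at -0.22, and on the deposited values at -0.23, -0.15 and -0.10. In both settings Idh3b, Acss1 and Got1 lay below Pdk1. Pdk2 was the highest member, with 516.3 in CM-MRKO and 392.2 in WT (0.33). Among the glycolytic genes with bright probes, Pfkm stood at 0.09, Eno3 at 0.05, Aldoa and Pkm at 0.00, Gapdh at -0.07, Pgam2 and Ldha at -0.15 and Tpi1 at -0.17 on the log2 scale. Gapdh turned sign with the scaling, at 0.05 with median scaling, 0.06 with scaling to detected probes and 0.16 on the deposited values. All these values are of the brightest probe of each gene. Further probes detected on all arrays gave 0.16 and -0.48 for Pfkm, 0.11 for Gapdh and -0.10 for Tpi1. For Idh3g and Suclg1 they gave -0.41 and -0.41, where the brightest probes stood at -0.15 and -0.04. A dimmer Pdhb probe near the detection limit gave -0.53, and the brighter one -0.05.

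Some cell markers differed in the same comparison. The 4 neutrophil markers were all higher in CM-MRKO, by 0.68 to 1.28 on the log2 scale, and summed to 2177 in CM-MRKO and 1029 in WT. They also summed to 1360 in CM-MRKO vehicle, from which 2 of 4 were higher with DOC/salt. Of 3 tested platelet markers 3 were lower, by -2.05 to -1.18, and the list summed to 483.6 in CM-MRKO and 826.4 in WT, with Pf4 not detected. Only 1 of 4 neutrophil and 1 of 4 platelet markers were detected on all arrays. Some of these differences therefore use a value below the detection limit, which leaves their sizes uncertain. Of 4 atrial markers 2 were detected (Myl7 and Sln were not), at 0.57 and 0.63, and the list summed to 20369 in CM-MRKO and 12326 in WT. Cardiomyocyte markers had a median of 0.19, with 0 of 6 past the threshold. Their part in the members' lean was not tested.

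**Figure D2:**
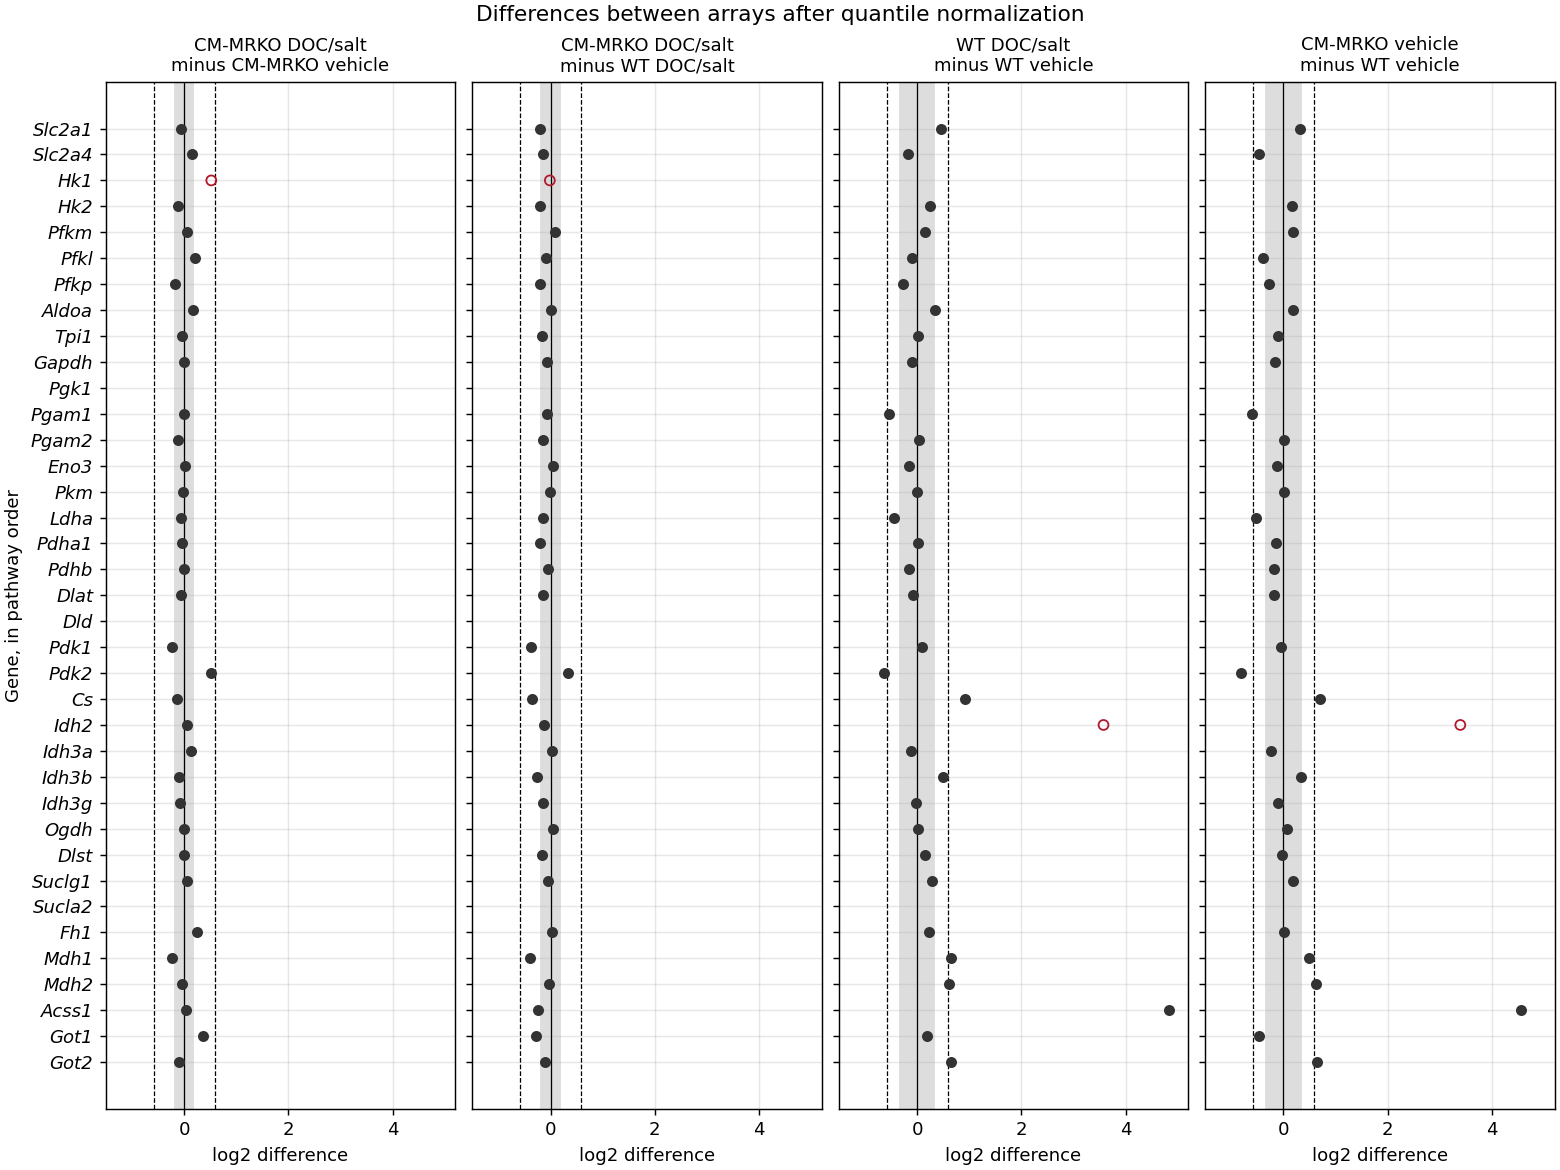
Log2 differences of the members in the 4 pairwise comparisons (1 array a side); dashed lines mark 1.5-fold, the grey band the technical spread (0.17, 0.19, 0.33 and 0.33 from left to right), and open circles genes detected on 1 array of the pair. In both left panels all members lie inside the dashed lines, while Acss1 and Idh2 lie far outside in both panels that use the WT vehicle array.

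Both comparisons with the WT vehicle array gave a different picture, and since they share that array they are not separate evidence. After DOC/salt in WT hearts, 6 of 33 members (18.2%) were higher, where 8.79% of 6391 genes were, and 1 (3.03%) was lower, where 4.08% were. The higher genes were Acss1, Idh2, Cs, Mdh1, Got2 and Mdh2, and the lower one Pdk2. In CM-MRKO vehicle hearts, 5 of 33 (15.2%) were higher than in WT vehicle hearts, where 7.45% of 6364 genes were, and 2 (6.06%) were lower, where 2.59% were. Acss1, Idh2, Cs, Got2 and Mdh2 were higher, and Pdk2 and Pgam1 lower. The members' medians were 0.04 and -0.02, against -0.05 over all genes in both comparisons, so the bulk of the pathway stayed near the middle.

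The balance depended on the scaling. With median scaling 13 members were higher and 0 lower in the WT response, and 8 and 0 in the vehicle genotype comparison. Those are 39.4% and 24.2% of the members, where 30.4% and 27.2% of all genes were higher, so in the vehicle comparison the members' share was then no larger than that of all genes. Scaling to detected probes gave 4 higher and 2 lower, and 4 higher and 4 lower, where 5.77% and 7.29%, and 4.62% and 5.06%, of all genes were. On the deposited intensities, 31 of the 32 members detected on all arrays were lowest on the WT vehicle array, which also held for 96.4% of all such genes. The exception was Pdk2, whose lowest value (359.6) was in CM-MRKO vehicle.

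Acss1 encodes the mitochondrial acetyl-CoA synthetase, which activates acetate for the cycle. It read 3586 in CM-MRKO DOC/salt, 3379 in CM-MRKO vehicle, 3857 in WT DOC/salt and 148.3 in WT vehicle, where the detection limit was 108.7. Idh2, the NADP-linked isocitrate dehydrogenase of mitochondria, read 808.9, 734.8, 803.2 and 106.2 in the same order and was not well above background in WT vehicle. The normalized value of Idh2 was thus at least 10.9-fold higher in WT DOC/salt than in WT vehicle, and at least 9.62-fold higher in CM-MRKO vehicle, taking as the WT vehicle level the lowest value among its detected probes or the gene's own where that was higher. These bounds apply to background-corrected values: the deposited intensities, background included, gave ratios of 7.56 and 6.92, and without background correction the log2 differences were 2.66 and 2.49. On the 3 brighter arrays both genes were steady, with differences of at most 0.24 on the log2 scale in the CM-MRKO response and in the genotype comparison under DOC/salt.

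Smaller gaps of the same direction were found for other mitochondrial genes. Cs read 1210, 1246, 1420.1 and 501.6 in CM-MRKO DOC/salt, CM-MRKO vehicle, WT DOC/salt and WT vehicle, with log2 differences of 0.92 for the WT response and 0.70 for CM-MRKO vehicle minus WT vehicle. Mdh2 read 1477, 1420.0, 1387 and 592.5 (0.62 and 0.63). Got2, the mitochondrial aspartate aminotransferase, read 11001, 11071, 10588 and 4819 (0.65 and 0.64). Each was lowest in WT vehicle. Mdh1 passed in the WT response at 0.66, but stood at 0.42 without background correction, 0.50 with an offset of 50 and 0.57 with scaling to detected probes. Without background correction Mdh2 stood at 0.58 in the WT response, just under the threshold, and with scaling to detected probes Got2 stood at 0.44 and 0.49, while Acss1, Idh2 and Cs passed in both comparisons under each of the 5 other scalings and background settings.

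By the stricter reading, at least 1.5-fold below all 3 other arrays, 3 of 34 members (8.82%) were low on the WT vehicle array, against the 4.45% of all genes given above. These were Acss1, Idh2 and Mdh2, the last at a gap of 0.60 on the log2 scale and just inside the limit, with Cs (0.56) and Got2 (0.54) just outside. All 3 belong to the 17 mitochondrial genes, and 0 of the 17 genes of the cytosol and plasma membrane did so. These counts rest on the brightest probe of each gene. A dimmer probe of the cytosolic Tpi1 (ILMN_2932359) also met this reading. Its log2 values were 10.36 in CM-MRKO DOC/salt, 10.40 in CM-MRKO vehicle, 10.46 in WT DOC/salt and 9.70 in WT vehicle. A dimmer probe of the mitochondrial Pdhb (ILMN_3116570) met it too, at 5.67, 6.30, 6.20 and 4.96 in the same order. In WT vehicle that Pdhb probe was not detected. In the WT response 5 of 17 mitochondrial genes were higher and 1 (Pdk2) lower, and 1 of 16 others was higher and 0 lower, beside 8.79% and 4.08% of all genes. On the other arrays 0 members stood 1.5-fold below or above the rest, nor did any stand above it on WT vehicle. Over all genes the shares below were 0.0293% on the CM-MRKO DOC/salt array, 0.0146% on CM-MRKO vehicle and 0.117% on WT DOC/salt. The shares above were 0.0732%, 0.0732% and 0.249% in the same order, and 0.439% for WT vehicle. Over those 3 arrays the median range of a member was 0.17 on the log2 scale, against 0.20 for all genes detected on them, and only Got1 exceeded 1.5-fold (a range of 0.66; 2.06% of all such genes exceeded it).

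**Figure D3:**
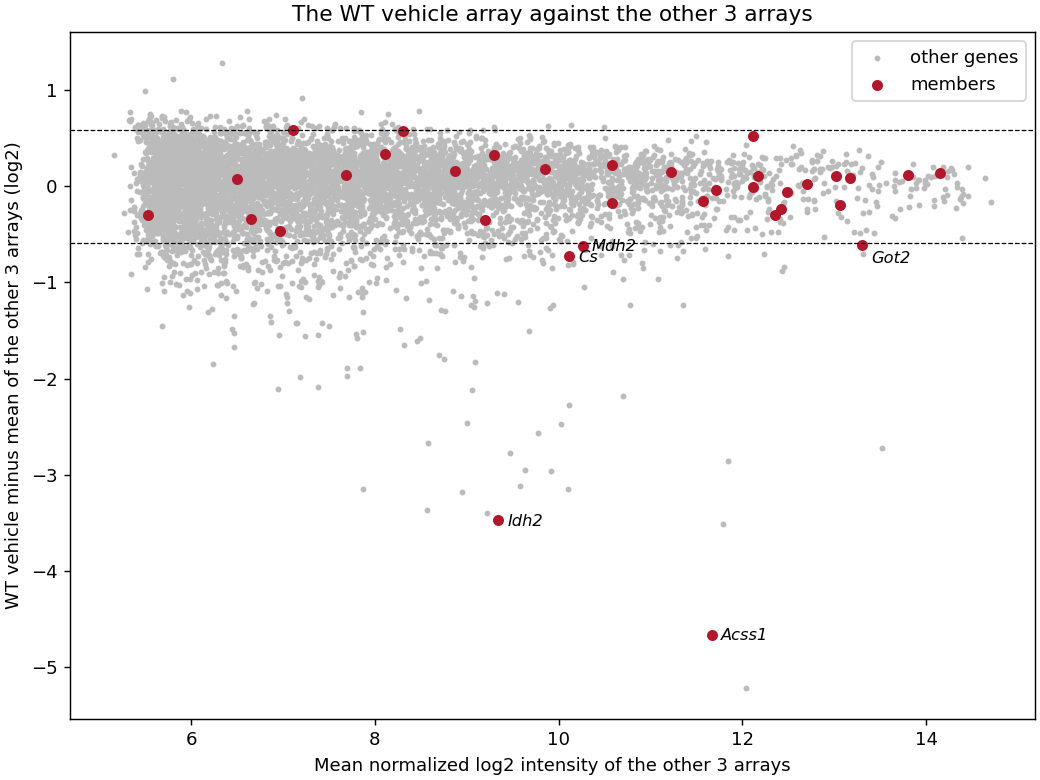
Normalized level on the WT vehicle array minus the mean of the other 3 arrays, against that mean (both log2), for 6830 detected genes (grey) and the 34 detected members (red); dashed lines mark 1.5-fold. Most members lie between the lines; Acss1 (-4.66) and Idh2 (-3.48) lie lowest, with Cs (-0.73), Mdh2 (-0.62) and Got2 (-0.61) just below the line.

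Some markers of other cells also differed from that array after normalization. In the WT response 2 of 2 tested neutrophil markers, 2 of 3 erythroid, 2 of 3 platelet and 2 of 4 fibroblast markers were higher. In CM-MRKO vehicle against WT vehicle these counts were 3 of 3, 2 of 3, 0 of 2 and 2 of 4. The fibroblast list was mixed, running between -0.34 and 2.87 in the WT response and between -0.34 and 2.90 in the vehicle comparison, with medians of 0.37 and 0.21. Cardiomyocyte markers had 0 of 6 past the threshold in both, with medians of -0.03 and -0.04, and endothelial markers medians of 0.02 and -0.15. Their part in the members' values was not tested.

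Pdk2 and Pgam1 were the members called lower in these comparisons. Pdk2 read 392.2 in WT DOC/salt and 374.2 in WT vehicle, and 359.6 in CM-MRKO vehicle. After normalization its log2 differences were -0.63 for the WT response and -0.81 for CM-MRKO vehicle minus WT vehicle, but on the deposited values 0.07 and -0.06. Pgam1 read 211.5 in WT DOC/salt and 210.4 in the CM-MRKO vehicle pool, against 198.2 in WT vehicle, with normalized differences of -0.54 and -0.60 and deposited ones of 0.09 and 0.09. Their lower calls therefore depend on how the WT vehicle array was scaled. All 12 members below 0 in the WT response after normalization were above 0 as deposited. Among them, Slc2a4 stood at -0.18 after normalization and 0.46 as deposited, and Ldha at -0.44 and 0.14.

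Genes read by several probes show how far a gap on the WT vehicle array carried over between probes. There were 5 such members with 11 probes detected on all arrays. For Tpi1, the brighter probe (ILMN_1230137) differed by 0.02 between WT DOC/salt and WT vehicle on the log2 scale, and the dimmer one (ILMN_2932359; 1557 and 615.5) by 0.75. For Idh3g, a regulatory chain of isocitrate dehydrogenase, the brighter probe (ILMN_2997022) differed by -0.02 and the dimmer one (ILMN_1224368; 2775 and 1059) by 0.79. In both genes 1 probe passed 1.5-fold and the other did not, whereas in the CM-MRKO response the Tpi1 probes gave -0.04 and -0.04 and the Idh3g probes -0.07 and -0.11. Outside these 5 members, a dimmer Pdhb probe (ILMN_3116570) read 135.7 in WT DOC/salt and an undetected 89.2 in WT vehicle. It also passed 1.5-fold in the WT response, while the brighter Pdhb probe stood at -0.15.

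The other genes with several probes detected on all arrays showed smaller disagreements. For Suclg1 the WT responses were 0.28 and -0.14 and for Gapdh -0.09 and -0.28 (the brighter Gapdh probe stood at 0.10 as deposited). The 3 Pfkm probes gave 0.15, -0.39 and 0.00. None of these 7 probes passed 1.5-fold in any of the 4 pairwise comparisons. Acss1, Idh2, Cs, Mdh2 and Got2 had 1 probe each, so their gaps have no second probe to set beside them. Mdh1 had 3 probes, of which 1 was detected.

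**Figure D4:**
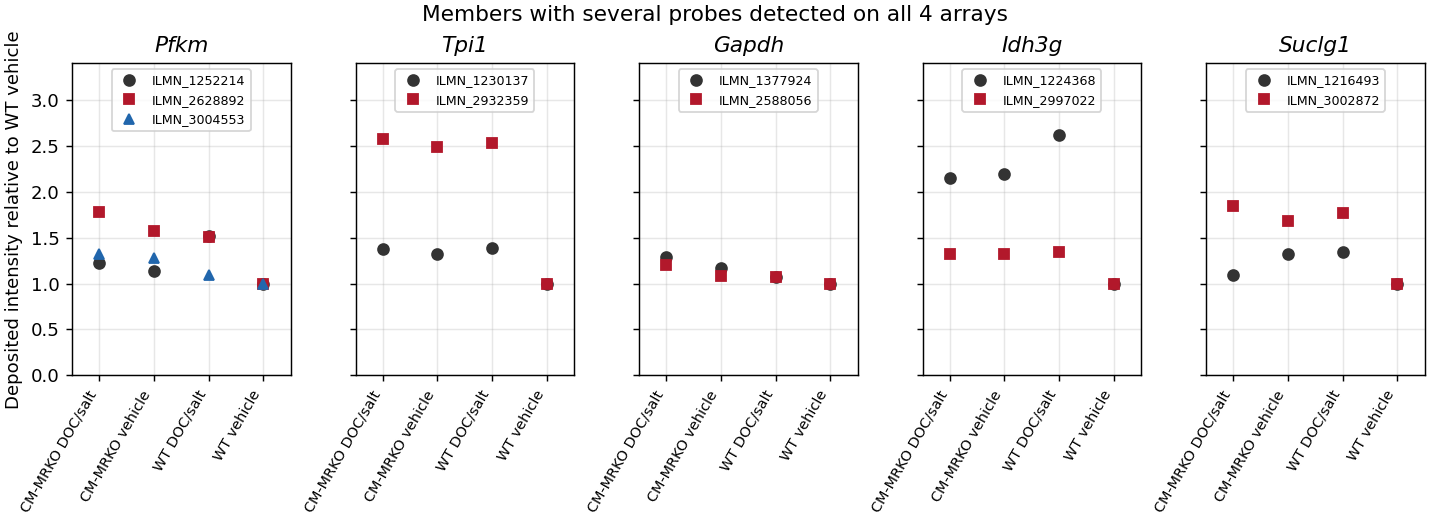
Deposited intensity relative to the WT vehicle array for the 5 members with several probes detected on all 4 arrays; each symbol is 1 probe on 1 array. For Tpi1 and Idh3g 1 probe lies at 2.15 to 2.62 times its WT vehicle value on the other arrays and the other probe at 1.32 to 1.38 times, while both Gapdh probes lie at 1.07 to 1.29 times.

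The promoters of Acss1, Idh2 and Mdh2 are shown because these members met the stricter reading on the WT vehicle array, and both annotated promoters of Pdk2 because its normalized DOC/salt responses had opposite signs in CM-MRKO and WT hearts. The sequences are from RefSeq on GRCm38.p6 and run from 250 bases before the start of transcription to 50 after it. Capitals mark matches, on either strand, to AGAACA (a half-site of corticosteroid receptors), AGGTCA (a half-site of other nuclear receptors), ACGTG (1 form of the core bound by hypoxia-inducible factor) or GGGCGG (the GC box bound by Sp1). Other forms of these motifs were not searched.
Acss1 promoter: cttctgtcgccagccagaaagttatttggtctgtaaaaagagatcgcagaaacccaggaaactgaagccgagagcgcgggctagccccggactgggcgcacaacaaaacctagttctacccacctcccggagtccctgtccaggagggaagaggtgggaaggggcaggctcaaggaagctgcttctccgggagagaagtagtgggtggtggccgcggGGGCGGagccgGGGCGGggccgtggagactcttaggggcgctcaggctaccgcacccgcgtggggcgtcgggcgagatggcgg
Idh2 promoter: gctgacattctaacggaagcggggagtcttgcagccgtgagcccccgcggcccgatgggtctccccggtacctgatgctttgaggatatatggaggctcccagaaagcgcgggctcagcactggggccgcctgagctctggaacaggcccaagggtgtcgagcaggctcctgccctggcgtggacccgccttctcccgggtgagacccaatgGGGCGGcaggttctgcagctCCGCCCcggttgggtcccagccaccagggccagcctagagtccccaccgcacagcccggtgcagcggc
Mdh2 promoter: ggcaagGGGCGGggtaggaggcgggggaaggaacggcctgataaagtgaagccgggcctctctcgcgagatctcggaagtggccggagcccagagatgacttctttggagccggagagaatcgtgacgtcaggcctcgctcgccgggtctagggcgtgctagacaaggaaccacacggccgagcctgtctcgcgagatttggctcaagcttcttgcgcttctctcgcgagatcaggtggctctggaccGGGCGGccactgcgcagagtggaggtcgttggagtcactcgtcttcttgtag
Pdk2 promoter 1: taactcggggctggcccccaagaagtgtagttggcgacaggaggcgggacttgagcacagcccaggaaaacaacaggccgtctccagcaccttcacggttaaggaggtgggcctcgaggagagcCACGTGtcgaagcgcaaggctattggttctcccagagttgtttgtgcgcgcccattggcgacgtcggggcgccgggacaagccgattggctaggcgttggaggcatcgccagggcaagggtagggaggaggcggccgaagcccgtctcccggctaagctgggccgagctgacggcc
Pdk2 promoter 2: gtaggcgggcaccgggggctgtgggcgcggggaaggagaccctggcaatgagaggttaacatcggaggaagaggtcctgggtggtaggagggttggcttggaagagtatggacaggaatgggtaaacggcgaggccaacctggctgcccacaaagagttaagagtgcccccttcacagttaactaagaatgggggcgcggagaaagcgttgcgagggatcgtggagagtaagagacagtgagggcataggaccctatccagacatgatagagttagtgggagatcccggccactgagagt

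Acss1 lies at chr2:150668191-150668490 (minus strand), Idh2 at chr7:80115301-80115600 (minus strand) and Mdh2 at chr5:135778399-135778698 (plus strand), and the Pdk2 promoters at chr11:95041322-95041621 (minus strand) and chr11:95040826-95041125 (minus strand). Acss1, Idh2 and Mdh2 each held 2 GC boxes and none of the other motifs searched. At least 1 GC box was found in 35.7% of 32851 RefSeq promoters of that length, and the share with 2 was not counted. The first Pdk2 promoter held ACGTG on both strands at overlapping positions, which together read CACGTG, and the second held none of the 4 motifs. Over the 55 promoters of 38 members, AGAACA occurred in 18.2% against 19.0% of all promoters, AGGTCA in 25.5% against 16.3%, ACGTG in 22 of the 55 against 19.6% of all and GGGCGG in 52.7% against 35.7%. Some promoters of 1 gene overlap (Aldoa, Eno1, Ogdh and Pfkm), so these shares describe windows and not independent genes, and a match is not evidence of binding.

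Subtracting the WT response to DOC/salt (1 array minus another) from the CM-MRKO response asks how the response differs between the genotypes. This difference contains the WT vehicle array. The genotypes also differ in carrying Cre, which cannot be told apart here from loss of the receptor. Of 34 members 1 was higher (2.94%, against 6.79% of 6830 genes) and 7 were lower (20.6%, against 10.1%). Pdk2 was the higher gene, at 1.14 on the log2 scale (0.64 with median scaling, 0.45 from deposited intensities). The lower genes were Acss1, Idh2, Cs, Mdh1, Got2, Mdh2 and Idh3b. Their CM-MRKO responses lay between -0.23 and 0.06. All but Idh3b (0.49) also passed in the WT response. The call was lost for Idh3b without background correction (-0.53) and with an offset of 50 (-0.56), for Mdh1 without background correction (-0.57) and for Got2 with scaling to detected probes (-0.53). On the deposited values 0 members were higher and 12 lower (35.3%, against 20.2% of all genes), and the members' median of -0.05 was -0.46.

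A further 91 genes of the same pathways (carriers, other isozymes, pyruvate enzymes, shuttles and glycogen metabolism) were followed as a list. Of the 80 with a named probe, 32 were detected on all arrays and 41 on none. In the CM-MRKO response 0 of 38 were higher or lower, where 0.63% and 0.42% of all genes were. The genotype comparison under DOC/salt also gave 0 of 38, where 0.882% and 0.942% of all genes were. Shares this small leave room for few calls among 38 genes. The medians of the list were 0.01 and -0.03. Pdk4, the pyruvate dehydrogenase kinase induced in fasting, read 1362 in CM-MRKO DOC/salt, 1066 in CM-MRKO vehicle, 907.5 in WT DOC/salt and 587.8 in WT vehicle. It was highest in CM-MRKO DOC/salt, with log2 differences of 0.28 from CM-MRKO vehicle and 0.52 from WT DOC/salt, under the threshold in both.

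In the WT response 3 of 38 were higher and 1 lower, beside the 8.79% and 4.08% of all genes. Gyg, encoding glycogenin, the primer of glycogen synthesis, read 234.3 in WT DOC/salt and 111.6 in WT vehicle (1.25 on the log2 scale). Pgm1 (phosphoglucomutase) read 241.2 and 134.0 (0.66). Me1, the cytosolic malic enzyme, read 123.5 and an undetected 85.8, and Gpd1, the cytosolic glycerol-3-phosphate dehydrogenase, 124.9 and 132.9 (-0.70). In CM-MRKO vehicle against WT vehicle 4 of 37 were higher (Gyg, Me1, Pfkfb2 and Gpd2) and 2 lower (Gpd1 and Eno2), beside the 7.45% and 2.59% of all genes. Pfkfb2, the heart form of the enzyme that makes and removes fructose 2,6-bisphosphate, read 383.8 and 181.1 (0.72). Mpc1 and Mpc2, the mitochondrial pyruvate carrier, were not analysed here.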

How the data were processed

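Whole-heart RNA was read on single-colour Illumina bead arrays, 1 per pool. The authors deposited linear intensity values with background left in and no visible scaling between arrays. The submitters' processing notes name Partek. What it was used for is not given in the sources used here. Groups follow the titles and treatment labels, since the protocol text names vehicle for all samples. A table with 4 columns whose names match no sample label was not used. Of 25697 probes, 23978 had 1 gene name, 0 several and 1719 none, and 23962 matched the GRCm38.p6 gene table by identifier with 0 symbols changed.

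Intensities were corrected with normexp (maximum likelihood, offset 16), quantile normalized and log2 transformed in limma 3.58.1 under R 4.3.3. Detection used 1338 receptor probes, with limits of 121.7, 119.8, 113.6 and 108.7 on the CM-MRKO DOC/salt, CM-MRKO vehicle, WT DOC/salt and WT vehicle arrays. The brightest probe stood for a gene, and a gene entered a comparison if 1 or more of its arrays detected it. For the technical spread, each gene with 2 or more detected probes gave the gap between its 2 brightest probes' log2 differences, and the SD of these gaps was divided by √2; it holds no spread between animals. With 1 array per group there was no test; 4 arrays limit the precision. All members were named, and of other pathway genes those past the threshold on both arrays, up to 4 a list, with Pdk4, Mpc1 and Mpc2; Me1 and Eno2, detected on 1 array, were named after their values were seen. Members and lists were chosen with earlier results of these data known. Scripts were tested on simulated data. There were 10 alternatives for the comparisons without the WT vehicle array and 9 for the others.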

Additional observations from a re-analysis of the deposited data

Results flagged for a closer look

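Pdk2 and Mdh1 were picked out because their DOC/salt responses ran in opposite directions in both genotypes, each by more than the technical spread of its comparison. Pdk2 differed by 0.51 on the log2 scale in CM-MRKO hearts and by -0.63 in WT hearts. Mdh1 differed by -0.23 in CM-MRKO hearts and by 0.66 in WT hearts. With 1 array per group the difference between genotypes was not tested. On the deposited values the Pdk2 responses were 0.52 and 0.07, of the same sign, and the Mdh1 responses -0.07 and 0.77. With other settings the Mdh1 response in WT hearts was 0.42 without background correction and 0.50 with an offset of 50.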

How the results depend on the processing

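No paired analysis was possible because each group has 1 array and the labels give no replicate numbers. Counted by gene, the absence of members past 1.5-fold in the CM-MRKO response and in the genotype comparison under DOC/salt held in all 10 alternatives. These included normalization without the WT vehicle array. The members' median in that genotype comparison changed sign, at -0.13 in the report and 0.0042 on the deposited intensities, where all genes shifted to 0.13. In the WT response, members lower changed from 1 to 0 without background correction and with an offset of 50, and to 2 with scaling to detected probes. Median scaling gave 13 higher, 0 lower and a median of 0.40, and the deposited intensities 14, 0 and 0.54. For CM-MRKO vehicle minus WT vehicle, members lower changed from 2 to 1 without background correction and with an offset of 50, and to 4 with scaling to detected probes. Median scaling gave 8 higher, 0 lower and a median of 0.35, and the deposited intensities 14, 0 and 0.53. In the difference of responses the deposited intensities gave 0 higher, 12 lower and a median of -0.46, and scaling to detected probes gave 2 higher and a median of 0.08. Median scaling and the deposited values moved the median of all genes itself to between 0.37 and 0.44 in both comparisons with WT vehicle; the cause was not tested. Counts over all genes moved by more than 1.5 times: in the CM-MRKO response from 42 higher and 28 lower to 5 and 3 without background correction and 177 and 180 without a detection filter, in the genotype comparison under DOC/salt from 59 and 63 to 9 and 17, and 210 and 197. In the WT response 562 higher and 261 lower became 1944 and 10 with median scaling and 369 and 466 with scaling to detected probes. For CM-MRKO vehicle minus WT vehicle 474 and 165 became 1733 and 5, and 294 and 322. In the difference of responses 464 and 690 became 69 and 1983, and 835 and 456. At the signal of the Pgk1, Dld and Sucla2 probes no difference was detectable.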
